A study of Canis lupus familiaris with 60 samples.

Results

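The genes described here are the IL-1 family cytokines IL33, IL1A, IL1B, IL18, IL1RN and IL37, and IL18BP, the binding protein of IL-18. They were found on a canine custom array by transcript identifier, as the RefSeq transcripts NM_001003180 (IL33), NM_001003157 (IL1A), NM_001037971 (IL1B), NM_001003169 (IL18), NM_001003096 (IL1RN) and NM_001048018 (IL18BP), the Ensembl transcript ENSCAFT00000011629 that the study named IL37, and the expressed sequence DR104528 that it named IL18BP. This gave 7 genes with 10 of the 60068 features of the array. The filter on dim features was passed by 6 of the 7 genes, while IL1B did not pass it.

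IL-1 family cytokines act at the start of inflammation in barrier tissues. IL-33 and IL-1 alpha are held in epithelial and endothelial cells and work as alarmins when the cells are damaged, and IL-1 beta and IL-18 are made as precursors that are cut by inflammasome proteases in keratinocytes and myeloid cells. The family carries its own brakes: IL-1 receptor antagonist (IL1RN) occupies the IL-1 receptor without signalling, IL-18 binding protein captures free IL-18, and IL-37 dampens inflammatory signalling.

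The skin came from 12 purpose-bred Beagle dogs aged 2 to 3 years. The 6 sensitized dogs (4 males and 2 females) had been sensitized through the skin to the house dust mite Dermatophagoides farinae, and the 6 nonsensitized dogs (2 males and 4 females) were controls. Every dog gave 5 punch biopsies of 8 mm from the clipped lateral chest: untreated skin at 0 hr, and a site under a patch with 75 mg of mite allergen paste and a site under a patch with 50 µl of saline at both 6 hr and 24 hr. The study compared skin gene expression before and after the allergen patch between sensitized dogs and nonsensitized controls. The dogs are 1 breed and the sensitization was experimental, which limits the groups as a model. The biopsies are whole skin, so that fewer cells of a type and less RNA per cell cannot be told apart. One array per biopsy gave 60 arrays in 10 groups of 6. Specimen 14 (24 hr allergen site of the sensitized dog 2839) was left out, and this group has 5 arrays. The study had excluded it for degraded RNA, low signal and poor correlation with the other arrays.

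The number of arrays limits the precision of every value below. Over the 59 arrays the median processed signal lay between 81.7 and 146.1, and signals well above background were seen on 68.8% to 80.2% of the spots. The 24 hr arrays were almost all on other slides than the 0 hr arrays, so that time and slide can hardly be told apart in comparisons with untreated skin. At 24 hr the groups of dogs were also spread unevenly over the slides. Slide 1 held 4 nonsensitized allergen arrays and no sensitized one. Sensitization and slide are therefore partly mixed in comparisons between the groups at 24 hr. Levels are given as variance-stabilized log2 signals, differences as log2 differences with their standard error (SE), and a gene was called when the adjusted p of limma over 45972 features was below 0.05 and the change was at least 1.5-fold. IL33, IL37 and IL18BP were on the list that the study derived from the 24 hr interaction of these same arrays, so that their 24 hr values describe this list and are no independent evidence for it.

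In short, the effect of the allergen at 24 hr was called as different between sensitized and nonsensitized dogs for IL18BP and IL37, and for IL33 on its second probe but not on the brighter one. IL33 mRNA was higher at 24 hr saline sites of both groups than in untreated skin, and in nonsensitized dogs it was lower under allergen than under saline. Among the 24 hr sites, IL18BP was highest at the allergen sites of sensitized dogs, and IL37 was lowest at 4 of these 5 sites. IL1A, IL18 and IL1RN were not called in any comparison between the groups of dogs. The plot of all signals by site shows these courses.

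**Figure D1:**
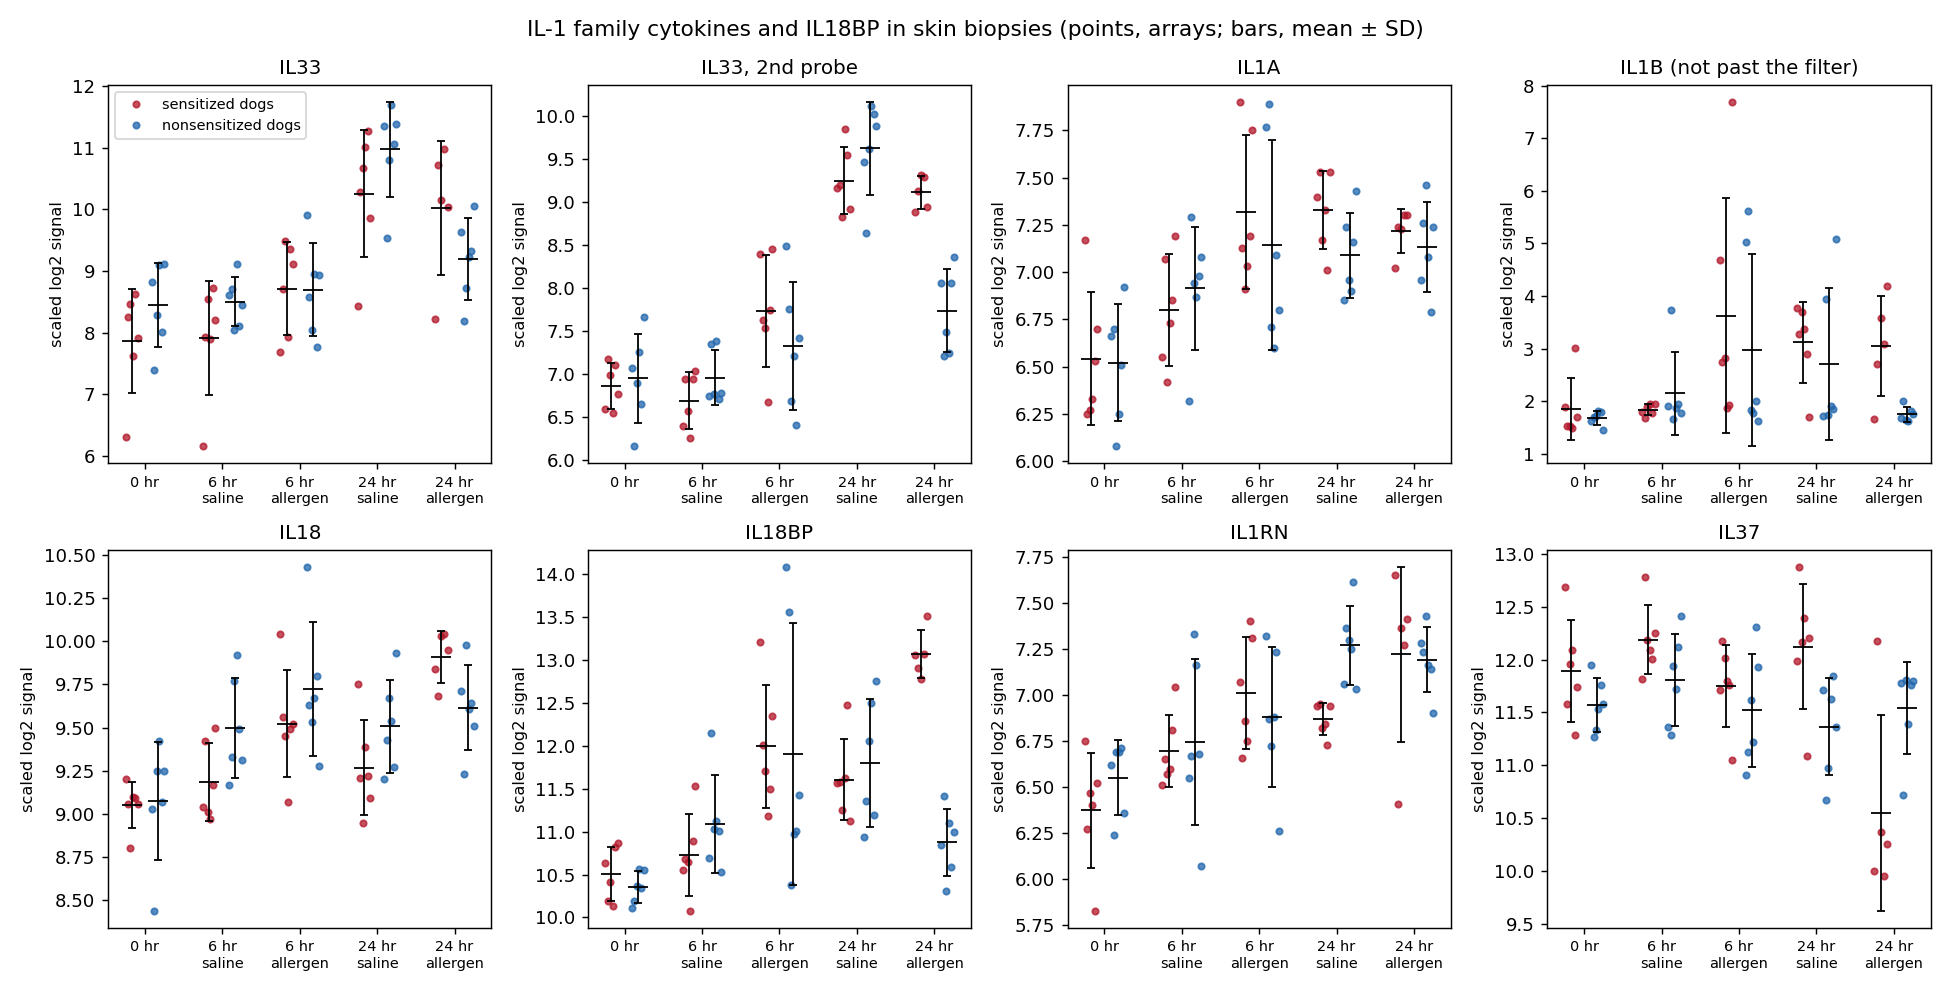
Scaled log2 signal (y axis) of each gene at the 5 kinds of site (x axis) for sensitized (red) and nonsensitized (blue) dogs. Points are arrays and bars the mean ± SD. The 5 red IL18BP points at 24 hr allergen sites (12.77 to 13.51) lie above all 6 blue ones (10.31 to 11.41), and 4 of the 5 red IL37 points there lie below every other 24 hr point of the gene. IL1B did not pass the filter and is drawn from a scaling without filter.

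IL33, the alarmin that drives type 2 immune cells, was read by 2 probes of the same transcript, whose signals correlated with r = 0.86 over the 59 arrays. On the brighter probe (A_11_P0000019898) untreated skin ranged from 6.30 over a median of 8.08 to 8.63 in sensitized dogs, and from 7.39 over 8.55 to 9.11 in nonsensitized dogs. At 24 hr saline sites it ranged from 8.43 over 10.48 to 11.28 in sensitized and from 9.54 over 11.21 to 11.70 in nonsensitized dogs. All saline sites of nonsensitized dogs at 24 hr were thus above all of their untreated sites, and in sensitized dogs only the lowest saline site reached the untreated range.

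Under allergen at 24 hr the same probe read 8.22, 10.04, 10.15, 10.72 and 10.99 in sensitized dogs, and from 8.18 over 9.27 to 10.06 in nonsensitized dogs. The levels overlapped between the groups of dogs. Allergen sites were lower than saline sites in 6 of 6 nonsensitized dogs, by 1.33 to 2.48, but in 3 of 5 sensitized dogs only. The fitted allergen minus saline difference was -1.78 (SE 0.45, limma adjusted p = 0.0251) in nonsensitized and -0.24 (adjusted p = 0.963) in sensitized dogs. The interaction, which is the sensitized minus the nonsensitized difference, was 1.55 (SE 0.65, 95% confidence interval 0.24 to 2.86) and was not called (limma adjusted p = 0.239).

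The second IL33 probe (A_11_P094911) varied less between dogs. At 24 hr allergen sites it read 8.88, 8.94, 9.12, 9.29 and 9.31 in sensitized dogs and from 7.21 over 7.76 to 8.36 in nonsensitized dogs, with no overlap. At 24 hr saline sites it ranged from 8.82 over 9.18 to 9.85 in sensitized and from 8.64 over 9.75 to 10.11 in nonsensitized dogs, so that in nonsensitized dogs every allergen site lay below every saline site. On this probe the 24 hr interaction was called with 1.75 (SE 0.39, limma adjusted p = 0.0163). The allergen minus saline difference in nonsensitized dogs was -1.89 (SE 0.27, limma adjusted p = 3.69e-05), against -0.14 (adjusted p = 0.964) in sensitized dogs. A further probe, for the Ensembl transcript ENSCAFT00000002106, which was not among the 10 features, was well above background on 18 of 59 arrays. Among them were 6 of 6 sensitized and 5 of 6 nonsensitized 24 hr saline sites. They also held 5 of 5 sensitized and 1 of 6 nonsensitized 24 hr allergen sites. The differences of this probe are not given. With the dog as a random block the interaction was also called on the brighter probe, at 1.56 (limma adjusted p = 0.0292), but not with the slide (1.07, adjusted p = 0.331) or the scan session as a block (1.27, adjusted p = 0.284). On that probe the 24 hr allergen sites of the groups differed by 0.83 (limma adjusted p = 0.196), and by 0.03 with the slide as a block. The interaction of the second probe was not called without dog 2800, 2802 or 2855 (1.55 to 1.72, limma adjusted p up to 0.0867). Within slides it was 1.11 on slide 2 and 1.5 on slide 3 for the brighter probe. The fall of the brighter probe in nonsensitized dogs was not called without dog 2704, 2800, 2802, 2845 or 2847 (-1.87 to -1.64, limma adjusted p up to 0.201).

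Compared with untreated skin, IL33 was called as higher at 24 hr saline sites of both groups, by 2.40 in sensitized (limma adjusted p = 8.47e-05) and 2.52 in nonsensitized dogs (adjusted p = 6.61e-06). The 24 hr allergen sites were called in sensitized dogs (2.16, limma adjusted p = 3.03e-04) and not in nonsensitized dogs (0.74, adjusted p = 0.18), where it was called with the dog as a block (0.74, adjusted p = 0.0414) but not with the slide (1.88, adjusted p = 0.41) or the scan session (1.83, adjusted p = 0.38). Each of these rises was seen in every dog measured. The 3 calls remained with the slide as a block, at 3.08, 2.50 and 3.52 for sensitized saline, sensitized allergen and nonsensitized saline sites. At 6 hr allergen sites of sensitized dogs the brighter probe was 0.84 above untreated skin in the unpaired fit (limma adjusted p = 0.187), in 6 of 6 dogs, and this was called with the dog as a block (adjusted p = 0.0356), but not with the slide (1.21, adjusted p = 0.339) or the scan session (1.31, adjusted p = 0.208). The second probe was 0.88 above untreated skin there (limma adjusted p = 0.0182), which was not called with the slide (1.04, adjusted p = 0.164) or the scan session (0.90, adjusted p = 0.153). This probe was higher under allergen than under saline in 6 of 6 sensitized dogs, by 1.05 (SE 0.27, limma adjusted p = 0.0528), and was called with the dog (adjusted p = 0.0142) or the slide as a block (1.09, adjusted p = 0.037). The brighter probe was also higher in 6 of 6 of these dogs. It was not called with the dog (0.79, limma adjusted p = 0.187), the slide (0.66, adjusted p = 0.61) or the scan session as a block (0.68, adjusted p = 0.667).

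IL1A, which encodes the epithelial alarmin IL-1 alpha, was called as higher than in untreated skin in 5 of 8 comparisons of patch sites, in both groups of dogs. None of the 5 was called with the slide as a block, where the differences of sensitized dogs were 0.53 at 6 hr allergen, 0.88 at 24 hr saline and 0.80 at 24 hr allergen sites, and those of nonsensitized dogs 0.23 and 0.45 at 6 hr and 24 hr allergen sites. With the scan session as a block those of sensitized dogs were 0.48, 0.39 and 0.38 in the same order. That of nonsensitized dogs at 6 hr allergen sites was then 0.33, and none of these was called. Untreated skin ranged from 6.25 over 6.43 to 7.17 in sensitized and from 6.08 over 6.58 to 6.92 in nonsensitized dogs. The 6 hr allergen sites ranged from 6.91 over 7.16 to 7.90 and from 6.60 over 6.95 to 7.89, respectively. The ranges overlapped with those of untreated skin in both groups.

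The rise of IL1A over untreated skin at 6 hr allergen sites was called in sensitized (0.77, limma adjusted p = 0.00314) and in nonsensitized dogs (0.63, adjusted p = 0.0316). The call in nonsensitized dogs was kept in 8 of 12 omissions of a dog, with limma adjusted p up to 0.171. At 24 hr the rise was called at the saline sites of sensitized dogs (0.79, limma adjusted p = 9.95e-04) and at the allergen sites of both groups, with 0.67 in sensitized and 0.62 in nonsensitized dogs. The 24 hr saline sites of nonsensitized dogs were 0.57 higher (limma adjusted p = 0.008), which is just under 1.5-fold. The 6 hr allergen minus saline difference in sensitized dogs, 0.51 (limma adjusted p = 0.257), was called with the slide as a block (0.64, adjusted p = 0.0321) but not with the dog (0.51, adjusted p = 0.0819) or the scan session (0.59, adjusted p = 0.0858). At 24 hr the allergen minus saline difference was -0.11 in sensitized and 0.04 in nonsensitized dogs. The interaction of -0.16 had an interval of -0.70 to 0.38 (limma adjusted p = 0.898).

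IL1B, the classical secreted IL-1, was well above background on 8 of 59 arrays and on none of the 0 hr or 6 hr saline arrays. It is therefore given for these arrays and without fold or test, on a scaling without filter. At 6 hr allergen sites they belonged to the sensitized dogs 2838 (4.69) and 2855 (7.69) and to the nonsensitized dogs 2704 (5.02) and 2716 (5.61). At 24 hr they were the saline sites of dogs 2840 (3.69) and 2847 (5.08) and the allergen sites of the sensitized dogs 2841 (3.58) and 2855 (4.19). IL1B signal well above background thus occurred in both groups of dogs. At 24 hr allergen sites it was seen on 2 of 5 sensitized and 0 of 6 nonsensitized arrays. These 2 signals were dim, and arrays not well above background read nearly as much. They reached 3.78 at 24 hr saline sites of sensitized dogs and 3.74 at 6 hr saline sites of nonsensitized dogs. No difference between the groups is read from IL1B.

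At 6 hr allergen sites, other members of the family were high in the same animals, a pattern that was seen after looking at the values and was not tested. The IL18BP signal was 14.08 in dog 2704, 13.55 in dog 2716, 13.20 in dog 2838 and 12.34 in dog 2855, and the next highest of the 12 dogs had 12.01. IL1A read 7.90 in dog 2838, 7.89 in dog 2716, 7.77 in dog 2704 and 7.75 in dog 2855, with 7.19 as the next highest. The brighter IL33 probe, IL18 and IL1RN did not share this order, and IL37 had none of these dogs among its 4 highest. These arrays were on slides 4 and 6, and the part of the slide was not tested.

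**Figure D2:**
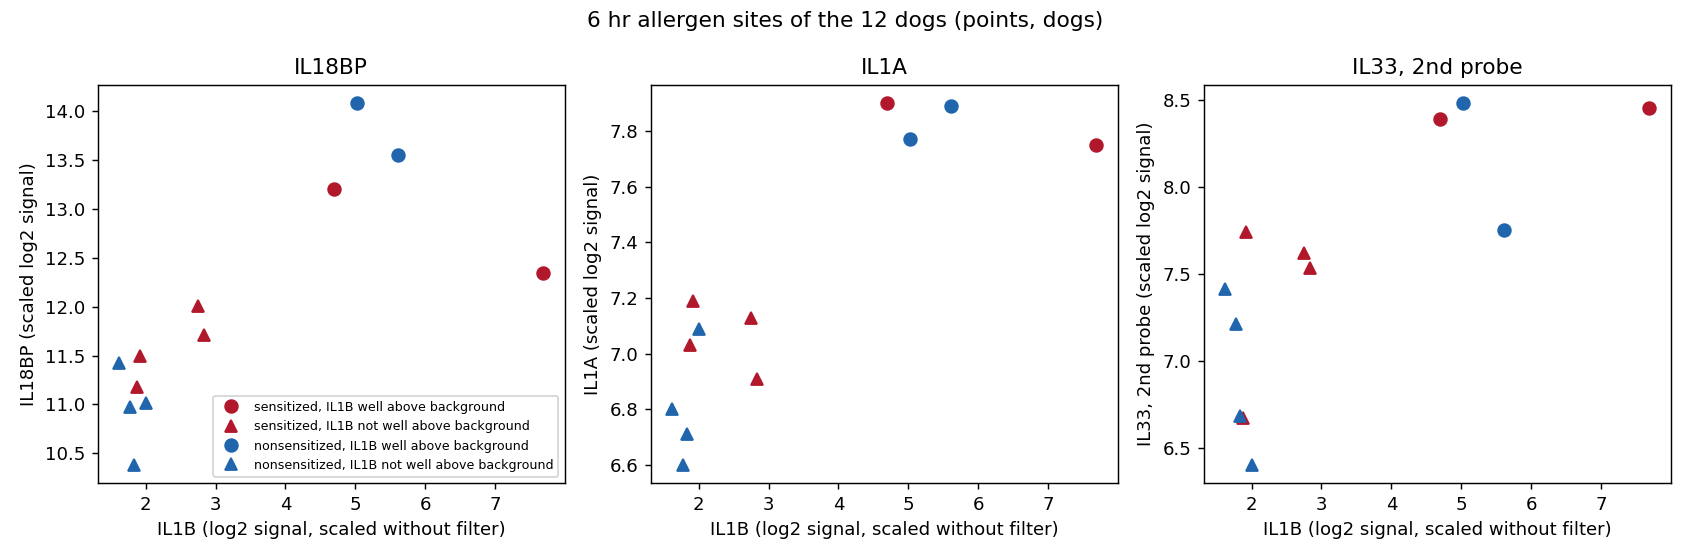
IL18BP, IL1A and the second IL33 probe (y axes, scaled log2 signal) against IL1B (x axis, log2 signal scaled without filter) at the 6 hr allergen sites of the 12 dogs. Points are dogs, and circles mark IL1B signals well above background. The circles of both colours have the 4 highest values in each panel, by a margin of 7.75 against 7.74 for the second IL33 probe, while on the brighter IL33 probe, which is not drawn, they hold 2 of the 4 highest.

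IL18, which induces interferon gamma in T and NK cells, was read by 2 probes. At 24 hr saline sites it ranged from 8.95 over 9.22 to 9.75 in sensitized and from 9.20 over 9.48 to 9.93 in nonsensitized dogs. The 24 hr allergen sites read 9.68, 9.84, 9.95, 10.03 and 10.04 in sensitized dogs and from 9.23 over 9.62 to 9.98 in nonsensitized dogs. The allergen site was higher than the saline site in 5 of 5 sensitized dogs and in 4 of 6 nonsensitized dogs, and the ranges of the groups overlapped.

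The 24 hr allergen minus saline difference of IL18 was 0.64 (SE 0.16) in sensitized dogs and missed the threshold narrowly (limma adjusted p = 0.0526). It passed with the dog as a block (0.65, limma adjusted p = 0.00859) and with the slide as a block (0.71, adjusted p = 0.0164). In nonsensitized dogs it was 0.11, and the interaction of 0.53 (interval 0.07 to 0.99) was not called (limma adjusted p = 0.248). A second IL18 probe gave 0.59 in sensitized dogs (limma adjusted p = 0.0506), was called with the dog as a block (0.61, adjusted p = 0.0032) and was under 1.5-fold with the slide (0.53, adjusted p = 0.0298) and the scan session as a block (0.48, adjusted p = 0.0842). Compared with untreated skin, IL18 was called at the 24 hr allergen sites of sensitized dogs (0.86, limma adjusted p = 5.75e-05) and at the 6 hr allergen sites of nonsensitized dogs (0.65, adjusted p = 0.00888), which were 0.64 and 0.36 with the slide as a block and not called. With the dog as a block the second probe gave 0.60, which was called, and 0.48, which was under 1.5-fold. The call in nonsensitized dogs was kept in 10 of 12 omissions of a dog, with limma adjusted p up to 0.115.

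IL18BP, the soluble inhibitor of IL-18, had the largest difference between the groups of dogs at 24 hr allergen sites among the 6 genes. Untreated skin ranged from 10.13 over 10.52 to 10.87 in sensitized and from 10.11 over 10.35 to 10.56 in nonsensitized dogs. The 6 hr allergen sites ranged from 11.18 over 11.86 to 13.20 in sensitized and from 10.38 over 11.22 to 14.08 in nonsensitized dogs. The early levels overlapped, and the highest 2 of them belonged to nonsensitized dogs.

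At 24 hr saline sites IL18BP ranged from 11.12 over 11.58 to 12.47 in sensitized and from 10.94 over 11.70 to 12.75 in nonsensitized dogs. The 24 hr allergen sites read 12.77, 12.90, 13.06, 13.07 and 13.51 in sensitized dogs and from 10.31 over 10.92 to 11.41 in nonsensitized dogs. There was no overlap between the allergen sites of the groups, and in sensitized dogs none between allergen and saline sites. All 5 sensitized dogs had more IL18BP signal under allergen than under saline, by 0.60 to 2.38, while 5 of 6 nonsensitized dogs had less.

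The 24 hr interaction of IL18BP was 2.38 (SE 0.55, interval 1.28 to 3.48, limma adjusted p = 0.019). It was made up of opposite differences, 1.46 (SE 0.40, limma adjusted p = 0.074) in sensitized and -0.92 (adjusted p = 0.273) in nonsensitized dogs, neither of which was called by itself. With specimen 14, the array of degraded RNA, included, the difference in sensitized dogs was called (1.56, limma adjusted p = 0.0142). With the dog as a block it was also called, at 24 hr with 1.45 (limma adjusted p = 0.0195) and at 6 hr with 1.26 (adjusted p = 0.04). It was not called with the slide as a block (1.40, limma adjusted p = 0.0708, and 1.34, adjusted p = 0.0673) or the scan session as a block (1.42, adjusted p = 0.0625, and 1.34, adjusted p = 0.0615). The second probe (A_11_P050071, r = 0.98) gave an interaction of 2.18 (SE 0.48, limma adjusted p = 0.0158). Within the slides that held all 4 groups of 24 hr sites, the interaction was 2.00 on slide 2 and 2.87 on slide 3, from 6 and 8 arrays. The call was lost when dog 2800, 2802, 2847 or 2855 was left out, with interactions between 2.17 and 2.58 over all 12 omissions and limma adjusted p up to 0.123.

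Compared with untreated skin, IL18BP was called as higher at 6 hr allergen sites in sensitized (1.48, limma adjusted p = 0.00557) and nonsensitized dogs (1.55, adjusted p = 0.00915). In nonsensitized dogs this rise ranged from 0.02 over a median of 0.77 to 3.97. Its call was kept in 10 of 12 omissions of a dog, with limma adjusted p up to 0.142. At 24 hr IL18BP was called at the saline sites of both groups, with 1.09 in sensitized and 1.44 in nonsensitized dogs, and at the allergen sites of sensitized dogs with 2.55 (limma adjusted p = 2.15e-06). The call at the saline sites of sensitized dogs was not made on the second probe (0.58, limma adjusted p = 0.174) and was lost in 3 of 12 omissions of a dog (2839, 2841 or 2853), with adjusted p up to 0.078. The call at the allergen sites remained with the slide as a block (2.53, limma adjusted p = 0.0134), although it was not called there on the second probe (1.77, adjusted p = 0.0542). The other 4 were not called in that fit, in which the differences were similar in size, with 1.29 and 1.23 at 6 hr allergen and 1.13 and 1.57 at 24 hr saline sites of sensitized and nonsensitized dogs.

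IL1RN, the receptor antagonist of both forms of IL-1, was called as higher than in untreated skin in 4 of 8 comparisons of patch sites. Untreated skin ranged from 5.83 over 6.44 to 6.75 in sensitized and from 6.24 over 6.66 to 6.71 in nonsensitized dogs. At 24 hr saline sites it ranged from 6.73 over 6.89 to 6.95 in sensitized and from 7.03 over 7.27 to 7.61 in nonsensitized dogs. These ranges of the saline sites did not overlap, although the difference of -0.40 between the groups was not called (limma adjusted p = 0.151).

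IL1RN at the 24 hr allergen sites read 6.41, 7.27, 7.36, 7.41 and 7.65 in sensitized dogs and from 6.90 over 7.19 to 7.43 in nonsensitized dogs. The lowest value belonged to a sensitized dog, and the ranges overlapped. The rise over untreated skin was called at the 6 hr allergen sites of sensitized dogs (0.63, limma adjusted p = 0.00777), at the 24 hr allergen sites of sensitized (0.85, adjusted p = 1.9e-04) and nonsensitized dogs (0.64, adjusted p = 0.00189), and at the 24 hr saline sites of nonsensitized dogs (0.71, adjusted p = 4.13e-04). With the slide as a block none of these was called. The differences of sensitized dogs were then 0.46 at 6 hr and 0.11 at 24 hr allergen sites, and those of nonsensitized dogs turned to -0.35 for allergen and -0.26 for saline. The 24 hr saline sites of sensitized dogs, 0.50 above untreated skin, turned to -0.45 in that fit. The 24 hr interaction was 0.43 with an interval of -0.07 to 0.92 (limma adjusted p = 0.454). It was 0.25 with all 60 arrays (limma adjusted p = 0.684) and 0.65 with the slide as a block (adjusted p = 0.0672), without a call.

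IL37, the anti-inflammatory member of the family, fell under allergen in sensitized dogs. Untreated skin ranged from 11.29 over 11.85 to 12.69 in sensitized and from 11.27 over 11.55 to 11.95 in nonsensitized dogs, and 24 hr saline sites from 11.09 over 12.19 to 12.88 and from 10.67 over 11.50 to 11.85. Under allergen at 24 hr it read 9.95, 10.00, 10.25, 10.37 and 12.18 in sensitized dogs and from 10.72 over 11.77 to 11.81 in nonsensitized dogs. The 4 low values lay below every other 24 hr site. The high one came from dog 2840, whose array was also the only one of this group on slide 8.

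The 24 hr allergen minus saline difference of IL37 was -1.57 (SE 0.30, limma adjusted p = 0.00399) in sensitized dogs, with 4 of 5 dogs lower and dog 2840 at 0.01. It was 0.18 (adjusted p = 0.957) in nonsensitized dogs. The interaction was -1.75 (SE 0.41, interval -2.57 to -0.93, limma adjusted p = 0.0198), and -2.15 without dog 2840 (adjusted p = 0.00586). Within slides it was -2.59 on slide 2 and -1.59 on slide 3. The call was lost when dog 2800, 2802, 2839, 2841, 2847 or 2855 was left out (limma adjusted p up to 0.116). With a separate fit per time point neither the interaction (-1.75, limma adjusted p = 0.0767) nor the fall in sensitized dogs (-1.57, adjusted p = 0.059) was called. Without dog 2855 the fall in sensitized dogs was not called either (limma adjusted p = 0.0561).

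Compared with untreated skin, IL37 was called at the 24 hr allergen sites of sensitized dogs only, with -1.34 (limma adjusted p = 3.24e-04). This difference did not keep its direction with the slide as a block, where it was 0.32, while the 24 hr saline sites of sensitized dogs then had 2.27 (limma adjusted p = 0.0052). On slide 8, which held both times, the only 24 hr array (dog 2840) was 0.40 above the mean of 3 untreated sites. At 6 hr, IL37 was lower under allergen than under saline in 6 of 6 sensitized and 5 of 6 nonsensitized dogs, by -0.44 and -0.28 in the fit, without a call in either group.

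**Figure D3:**
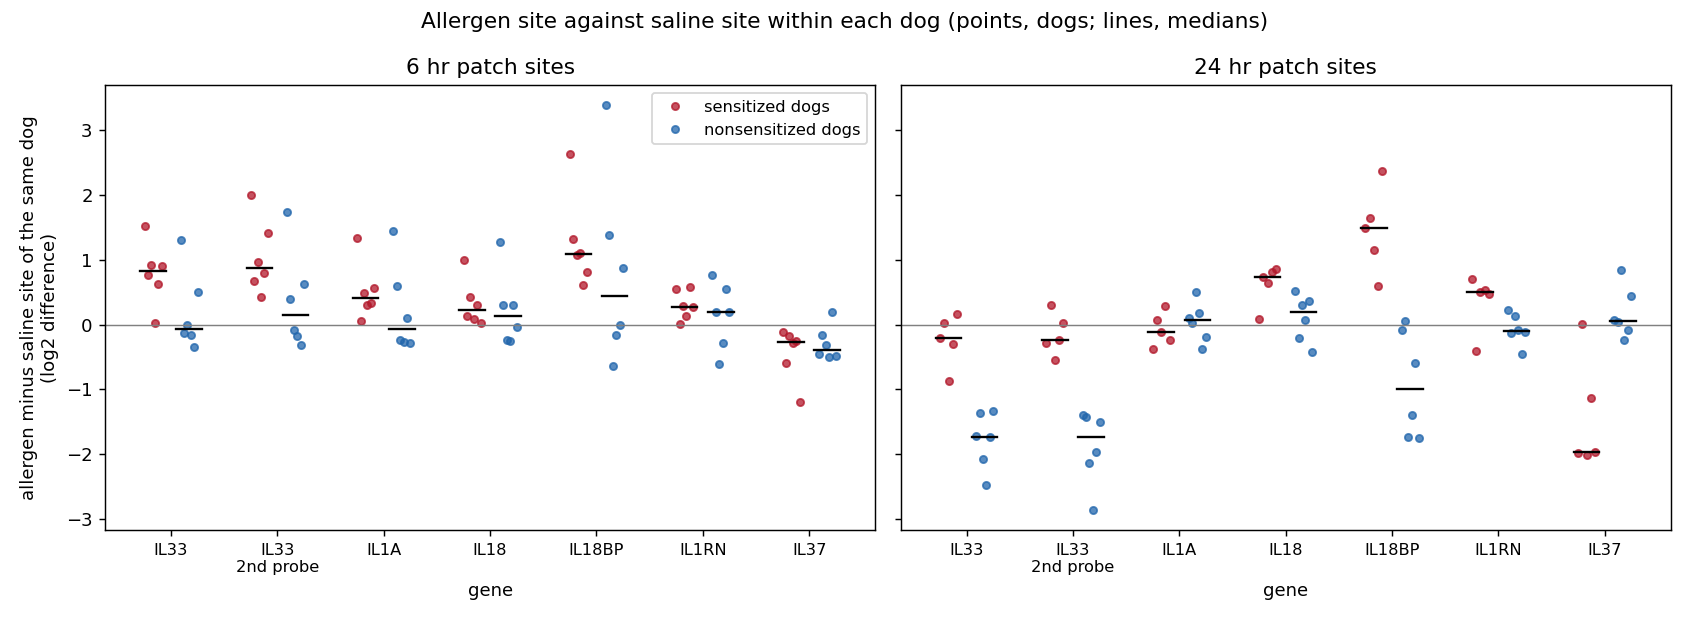
Difference between the allergen and the saline site of the same dog (y axis, log2) at 6 hr (left) and 24 hr (right) for sensitized (red) and nonsensitized (blue) dogs. Points are dogs and lines medians. At 24 hr all 6 blue points of both IL33 probes are below 0, all 5 red points of IL18BP are above 0, and 4 of 5 red points of IL37 are clearly below 0.

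The 24 hr allergen minus saline differences of agonists and inhibitors are set side by side here without a test between genes. In sensitized dogs IL18 had an allergen minus saline difference of 0.64 and its inhibitor IL18BP one of 1.46, whereas nonsensitized dogs had 0.11 and -0.92. IL1A had -0.11 and its antagonist IL1RN 0.35 in sensitized dogs, and 0.04 and -0.08 in nonsensitized dogs. None of these was called in the unpaired fit. The alarmin IL33 on the brighter probe had -0.24 and the anti-inflammatory IL37 -1.57 in sensitized dogs, and -1.78 and 0.18 in nonsensitized dogs. The called differences behind the interactions of IL33 and IL37 thus lay in different dogs, with lower allergen than saline sites of nonsensitized dogs for IL33 and of sensitized dogs for IL37.

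**Figure D4:**
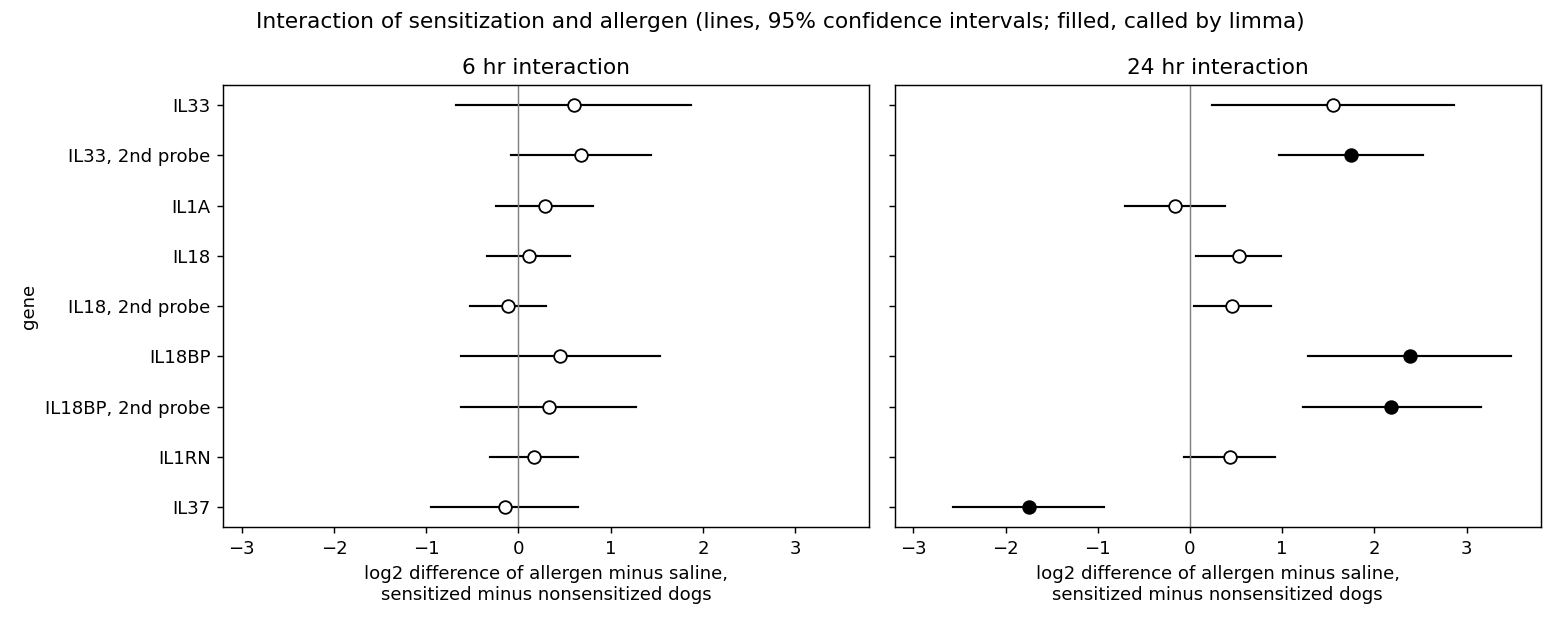
Interaction of sensitization and allergen (x axis, log2 difference of allergen minus saline, sensitized minus nonsensitized dogs) at 6 hr (left) and 24 hr (right) for each gene (y axis). Lines are 95% confidence intervals and filled points were called by limma. At 6 hr every interval includes 0, and at 24 hr the second IL33 probe (1.75), IL18BP (2.38, second probe 2.18) and IL37 (-1.75) were called.

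Counted over the 6 genes that passed the filter, read by the brighter probe, the calls were few between groups of dogs. At 0 hr limma called 0 of 6 genes, and 0 at an unadjusted p below 0.05, against 0.00218% of all features. In the 6 hr interaction it called 0 of 6, also 0 at an unadjusted p below 0.05, against 0.0% of all features. For allergen minus saline at 6 hr it called 0 of 6 in sensitized (3 at an unadjusted p below 0.05) and 0 of 6 in nonsensitized dogs (1 at that p), against 0.418% and 0.0348% of all features. The 24 hr interaction was called for 2 of 6 (IL18BP and IL37) against 0.94%, a share that belongs to a contrast from which the study had already listed both genes.

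Allergen minus saline at 24 hr was called for 1 of 6 in sensitized dogs (IL37, background 0.274%) and for 1 of 6 in nonsensitized dogs (IL33, background 0.766%). Between the groups of dogs, 24 hr allergen sites differed in 2 of 6 (background 7.13%), namely IL18BP with 2.19 (limma adjusted p = 1.31e-04) and IL37 with -0.99 (adjusted p = 0.013). The 24 hr saline sites differed in 0 of 6 (2 at an unadjusted p below 0.05) against 2.37% of all features. With the slide as a block the shares of all features were 3.8% at allergen and 0.0% at saline sites. In that fit IL18BP (2.03) and IL37 (-1.39) remained called at allergen sites.

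Against untreated skin, the calls were 0 of 6 at 6 hr saline sites of sensitized (background 2.64%) and of nonsensitized dogs (2.26%), with 0 and 2 genes at an unadjusted p below 0.05. At 6 hr allergen sites they were 3 of 6 in both groups, against 3.87% in sensitized and 1.61% in nonsensitized dogs. At 24 hr saline sites they were also 3 of 6 in both groups, against 9.48% and 22.7%. At 24 hr allergen sites 6 of 6 genes were called in sensitized dogs, 5 of them higher and IL37 lower, against 13.7% of all features. In nonsensitized dogs 2 of 6 were called there (IL1RN and IL1A), against 17.0%. In place of these 20 calls against untreated skin, 5 were made with the slide as a block: 3 for IL33, 1 for IL18BP and 1 for IL37.

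Of 44 further genes listed for the IL-1 pathway, 13 could be named on the array and all 13 passed the filter. None of 8 receptors and none of 5 further ligands, among them the IL-36 cytokines, could be named and they are not analysed here. In the 24 hr interaction 5 of 13 were called, against 0.94% of all features, all higher in sensitized dogs, and the median over the 13 was 1.33 against -0.0042 over all features. Nothing about the pathway is read from this share, because all 5 are also on the list that the study derived from this contrast. NLRP3 could be named from that list alone, and of the 12 genes named through RefSeq 4 were called. SELE, the endothelial adhesion molecule E-selectin, had 2.47 (SE 0.56, limma adjusted p = 0.0188), and CCL2, which attracts monocytes, had 2.36 (adjusted p = 0.0361). The cytokine IL6 was called too, but in nonsensitized dogs only 1 of 6 allergen sites had a signal well above background, so that its difference is not given. Of the genes for processing, the inflammatory caspase CASP4 had 1.78 (limma adjusted p = 0.0372) and the inflammasome sensor NLRP3 1.21 (adjusted p = 0.041). None of the 5 was called without dog 2800, 2802 or 2855.

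The calls of the pathway genes are set out here by comparison, without a test between genes. At 24 hr, allergen minus saline was called in nonsensitized dogs for CCL2 (-2.21) and the adhesion molecule ICAM1 (-1.15, limma adjusted p = 0.0206), and for IL6, which was well above background on 6 of 6 saline and 1 of 6 allergen sites, that is for 3 of 13 against 0.766% of all features. All 3 are on the study's list from the 24 hr interaction, of which this difference is a part. Nothing is read from this share either. In sensitized dogs 0 of 13 were called at 24 hr, against 0.274% of all features, with 1.53 for SELE (limma adjusted p = 0.0645) and 1.22 for CASP4 (adjusted p = 0.0739) next to 1.46 for IL18BP. At 6 hr, 6 of 9 NF-kB target genes were called as higher under allergen in sensitized dogs, such as CCL2 (2.85, limma adjusted p = 5.97e-05) and SELE (2.47, adjusted p = 2.39e-04), against 0.418% of all features. One of the 6 was IL6, which was not well above background on any of their 6 hr saline arrays. In nonsensitized dogs 0 of 9 were called, against 0.0348%. No 6 hr interaction of the 13 genes was called, as of any feature (0.0%).

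**Figure D5:**
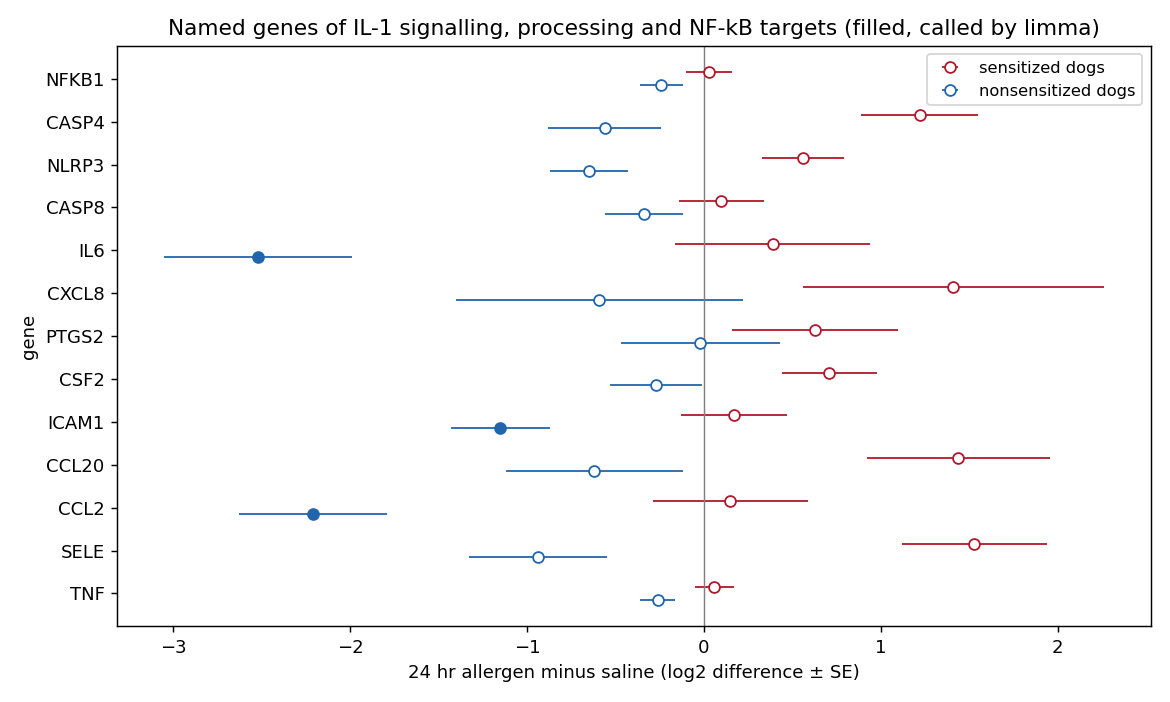
Difference between allergen and saline sites at 24 hr (x axis, log2 ± SE) of the 13 named pathway genes (y axis) in sensitized (red) and nonsensitized (blue) dogs. Filled points were called by limma: IL6, CCL2 and ICAM1 were lower under allergen in nonsensitized dogs, and no gene was called in sensitized dogs. The IL6 signal was well above background on 1 of 6 nonsensitized allergen arrays, so that its point has no exact size.

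A few cell type markers were called in the 24 hr interaction, in which 0.94% of all features were called. None was called of 3 fibroblast markers (median 0.04), 2 endothelium, 2 neutrophil and 3 mast cell markers, or of the single hair follicle and adipocyte markers. Of 3 macrophage and dendritic cell markers on the array, MRC1 was called in the interaction (1.61, limma adjusted p = 0.00893), and its fall under allergen in nonsensitized dogs was -0.97 (adjusted p = 0.0107). The mean level of the 3 lay between 9.00 and 9.57 at allergen sites and between 9.53 and 10.58 at saline sites of nonsensitized dogs, and between 9.54 and 10.47 and between 8.87 and 10.12 in sensitized dogs. The mean of 2 neutrophil markers lay between 11.02 and 11.62 at the allergen sites of sensitized dogs, above the 9.36 to 10.91 of both kinds of nonsensitized sites and above every saline site of sensitized dogs, which had a mean of 10.2. Their part in the results for IL33 and IL18BP was not tested.

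Of 4 keratinocyte markers, DSP (-0.62, limma adjusted p = 0.0411) and TGM1 (-0.59, adjusted p = 0.0332) were called as lower in the 24 hr interaction, next to -1.75 for IL37. The mean level of the 4 lay between 13.46 and 13.73 at sensitized allergen sites, 13.47 and 13.99 at sensitized saline sites, 13.90 and 14.29 at nonsensitized allergen sites, and 13.56 and 13.99 at nonsensitized saline sites. Of 4 T cell markers, CD28 was called (0.97, limma adjusted p = 0.00802). The mean level of the 4 lay between 6.27 and 6.76 at sensitized allergen sites, above the 5.86 to 6.13 of nonsensitized allergen sites, and between 6.00 and 6.38 at sensitized and 5.83 and 6.30 at nonsensitized saline sites. MRC1, DSP, TGM1 and CD28 are also on the study's list from this contrast, from which alone MRC1 and DSP could be named. All 4 keratinocyte and all 3 macrophage markers were well above background on all 59 arrays, but only 1 of 2 neutrophil and 3 of 4 T cell markers were. The part of these markers in the results for IL18BP and IL37 was not tested.

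Across the 59 arrays, each member was set against 1291 named genes by Pearson correlation, which is a description over arrays that share dogs, slides and treatments. Some of these genes could be named only from the study's list from the 24 hr interaction. IL33 was most like GPR1 (0.80), the macrophage receptor MRC1 (0.79) and AIF1 (0.78). IL37 was most like FLG2 (0.74), NMT2 (0.73) and LOR (0.71), of which FLG2 and LOR encode proteins of the cornified epidermis. IL18BP was most like BIRC3 (0.93), TMEM165 (0.90) and CHI3L1 (0.90), of which BIRC3 encodes an inhibitor of apoptosis. IL18 was most like CASP4 (0.76), CD40 (0.76) and PTPRZ1 (0.75).

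IL1A was most like CHORDC1 (0.80), SLC1A1 (0.77) and ABCF2 (0.76), and IL1RN most like GDI2 (0.80), PLAU (0.80) and ARHGAP1 (0.77). No member was among the 3 genes most like another member. Between members the correlation was 0.66 for IL18BP with IL18, 0.69 for IL18BP with IL1A, -0.51 for IL18BP with IL37 and -0.23 for IL33 with IL37.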

How the data were processed

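RNA of 60 canine skin biopsies was measured on one-colour Agilent 8x60K custom arrays. The authors made the deposited intensity values (processed signals, background-subtracted and not scaled between arrays) with Feature Extraction 10.7.3.1. The genes, lists and tests were chosen with earlier results of these data known.

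Outlier spots were set to missing, and a spot was kept if at least 5 arrays in 1 or more groups showed it well above background. Signals were then variance-stabilized; the model of vsn was reimplemented in Python (3.11.15, numpy 2.4.6, scipy 1.17.1) and tested on simulated data. This scale is close to linear for low signals, so that differences of dim probes understate the log2 change. Spots of a probe were averaged, and a gene was read by its brightest probe past the filter. The package limma (3.58.1, statmod 1.5.0, R 4.3.3) fitted the means of the 10 groups to 59 arrays, unpaired as in the methods, and p was adjusted after Benjamini and Hochberg over 45972 features. In a simulation of the 24 hr interaction 81 of 100 probes changed 2-fold and 95 of 100 changed 4-fold were recovered, with 6 false calls. The simulated noise was independent between arrays, without correlation within a dog or an effect of the slide. The change was placed in the 24 hr allergen sites of sensitized dogs only. The simulation therefore checks the fit and gives no recovery rate for the genes described here.

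The 5 biopsies of a dog are paired by the labels. Deviations of arrays of the same dog from their group means correlated with a median r of 0.386, those of different dogs with -0.034. Other genes of the lists were named where they were called in the 24 hr interaction or in allergen minus saline at 24 hr, and for each member the 3 most correlated genes. Alternatives were all 60 arrays, 75th percentile scaling, normexp (offset 50) with quantile scaling on spot medians because the files hold no spot means, no and a stricter filter, blocks for dog and slide, a separate fit per time point, each dog left out, the mean over probes and other thresholds. The scan session as a block was added after seeing the data. No sequences are printed because none of the sources used here holds them.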

Additional observations from a re-analysis of the deposited data

Results flagged for a closer look

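The 24 hr effect of allergen differed between sensitized and nonsensitized dogs by the interaction of limma for IL37 (-1.75) and IL18BP (2.38), as given above. Of 60 groups of arrays examined for a sample far from the others, 6 had one, and chance gives about 1 in 20. On the brighter IL33 probe dog 2838 had 6.16 at its 6 hr saline site, with 7.90 as the nearest sensitized dog, and this dog was not apart on the second probe. IL37 was 12.18 at the 24 hr allergen site of dog 2840, with 10.37 as the nearest. IL18BP was 12.47 at the 24 hr saline site of the sensitized dog 2853 (nearest 11.62) and 12.15 at the 6 hr saline site of the nonsensitized dog 2716 (nearest 11.12). IL1A was 7.02 at the 24 hr allergen site of dog 2838 (nearest 7.23), and IL18 was 8.80 in untreated skin of dog 2840 (nearest 9.06).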

How the results depend on the processing

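Of the 26 calls among 102 member differences, 24 were kept with all 60 arrays, 26 with 75th percentile scaling, without filter, with the stricter filter and with the replicate block (the dog), 20 with normexp and quantile scaling, 24 with the mean over probes, 21 to 26 when a dog was left out, 12 with the scan session and 10 with the slide as a block. The paired analysis lost no call and added IL33 in the 24 hr interaction and at 6 hr (sensitized) and 24 hr (nonsensitized) allergen sites against untreated skin; for allergen minus saline in sensitized dogs the replicate block called 1 gene in place of 0 at 6 hr and 3 in place of 1 at 24 hr. The 6 hr count was also 1 with the slide as a block and at an unadjusted p below 0.002. The gene was IL18BP with the replicate block but IL1A with the slide as a block. The 24 hr count was 2 with all 60 arrays, normexp, the stricter filter, the slide, the scan session or the mean over probes, and 3 at that unadjusted p. With a separate fit per time point, which has fewer degrees of freedom, the counts were 0 in place of 1 for allergen minus saline in nonsensitized dogs at 24 hr, and 1 in place of 2 for the 24 hr interaction and for the allergen sites. In that fit IL33 (-1.78) and all 3 calls of IL37 were lost, in sensitized dogs (-1.57, limma adjusted p = 0.059), in the interaction (-1.75, adjusted p = 0.0767) and at the allergen sites (-0.99, adjusted p = 0.055), while IL18BP was gained in sensitized dogs (1.46). Against untreated skin 5 calls in place of 20 were made with the slide and 6 with the scan session as a block. The slide reversed IL37 at 24 hr allergen sites of sensitized dogs (0.32) and IL1RN at 24 hr saline (-0.26) and allergen sites (-0.35) of nonsensitized dogs; time and slide nearly coincide. The pathway genes called were 2 without filter; the cause was not tested.

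Leaving out a dog gave 0 to 1 calls for allergen minus saline in sensitized dogs at 6 hr, 0 to 3 at 24 hr, and 0 to 1 in nonsensitized dogs at 24 hr, where IL33 was lost. It gave 0 to 2 for the 24 hr interaction (0 without 2800, 2802, 2847 or 2855), 2 to 3 for the allergen sites (3 without 2838), 16 to 21 against untreated skin and 0 to 5 for pathway genes. The dim IL1B signal is limited by background on 51 of 59 arrays.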

Other observations

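Specimen 14, the 24 hr allergen site of the sensitized dog 2839, was excluded in the study for degraded RNA, low signal and poor correlation with the other arrays, and entered no comparison in the report other than as an alternative. Scaled together with all 60 arrays, its IL37 signal was 9.23, below the 9.94 to 12.18 of the other 5 sensitized dogs and below the 12.87 of the saline site of the same dog. Its IL18BP signal was 13.68, above the 12.76 to 13.50 of the other dogs, with 11.57 at its saline site. IL33 was 10.43, within 8.20 to 10.98. IL1A (5.74), IL1RN (6.08) and IL18 (9.38) were below the other 5 dogs, whose lowest values were 6.99, 6.37 and 9.67. The share of spots with a signal well above background was 67.6% on this array, against at least 68.8% on the 59 arrays used.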
